A study of Mus musculus with 1203 samples.

Results

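Enzymes and carriers of detoxification and lipid metabolism were followed through single cells of the mouse colon: Gpx2, Txn2, Mgst1, Sult1a1, Adh1, Cyp3a13, Ces2c, Fabp1 and Decr2. They were taken by symbol from a table of 46517 genes, so they are 9 of 46517, and all 9 symbols were found. They were chosen because earlier results on these same cells showed them at different levels in different cell classes, so their levels by class are a description and carry no test. The cells came from the colon of 11-week-old female mice, either wild type or carrying Villin-Cre and floxed Ipmk, a cross in which the recombinase acts in intestinal epithelium and is designed to remove the gene of inositol polyphosphate multikinase. Single cells were sorted into wells after staining for SIGLEC-F and EPCAM, and each well was labelled as a tuft cell or an epithelial cell together with its genotype. How the epithelial wells were gated is not described by the labels. Full-length polyadenylated cDNA was made from each well with a modified Smart-seq2 protocol. No label names an animal, so each genotype counts as 1 sample, and no p-value is given. The wells fell into 7 plate sets, 3 wild type (sets 1, 3 and 6) and 4 labelled conditional knockout (sets 2, 4, 5 and 7). Every SD below is the spread between plate sets, which may be technical, and plate set and genotype cannot be told apart.

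Cells with at least 1000 genes above 0 TPM (a level scaled for transcript length and for the total of the well, which is the same in every well) were kept, which left 856 of 1203 wells. They were divided by marker level, not by the sorting label. The Krt20 class had Krt20, a keratin of mature surface enterocytes, at 20 TPM or more and held 15.7% of the kept cells. The tuft class had the tuft cell channel Trpm5 at 50 TPM or more and the tuft cell kinase Dclk1 at 100 TPM or more, and held 480 cells, or 56.1%. The remaining cells, 27.6%, met neither rule, while 6 cells met both rules and were set aside. Of the kept wells labelled tuft, 59.7% of the wild type wells and 61% of the wells labelled conditional knockout were in the tuft class. Of those labelled epithelial, 18 of 39 wild type wells were in the tuft class against 1 of 51 labelled conditional knockout. Of these 18 wells, 12 were in plate set 6 and 5 in set 3. The epithelial label thus did not hold the same cells under both genotype labels, nor in every wild type plate set.

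Detoxification in the gut wall runs in steps. Oxidising and hydrolysing enzymes such as cytochromes P450, alcohol dehydrogenases and carboxylesterases open or expose a reactive group, conjugating enzymes such as sulfotransferases and glutathione transferases then attach a soluble group, and glutathione peroxidases and thioredoxins remove peroxides and keep protein thiols reduced. Fatty acid binding proteins carry lipids through the cytosol, and auxiliary enzymes prepare unsaturated fatty acids for oxidation. In the colon much of this work is known from mature absorptive cells, whereas tuft cells are chemosensory cells that signal to immune cells and nerves.

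The class names were checked against marker lists. The colonocyte list holds Krt20 and the tuft list Trpm5 and Dclk1, which the rules used, so these were left out of the counts. Of the other colonocyte markers, 10 of 11 were above 0 TPM in at least 25% of Krt20 cells, and their summed level was 8502 to 19109 TPM per plate set, against 42.9 to 282.8 TPM in the tuft class. Of the other tuft markers, 12 of 13 passed the same share in the tuft class, with a summed level of 1127 to 2120 TPM (0 to 66.4 TPM in the Krt20 class). The remaining cells were mixed: 6 of 13 tuft markers, 5 of 11 colonocyte markers and 4 of 10 stem or progenitor markers passed the share, and summed levels were 63.5 to 425.3, 471.1 to 1869 and 29.2 to 144.7 TPM. Of the stem or progenitor markers, 2 of 10 passed it in the tuft class, with a summed level of 46.6 to 107.3 TPM. That range lies inside the one of the remaining cells. In the Krt20 class 1 of 10 passed, at 7.68 to 33.1 TPM. Summed goblet cell markers of the remaining cells ran from 45.4 to 4049 TPM and their summed immune markers from 0 to 3003 TPM between plate sets, so these cells are called by their rule and by no cell type name. Goblet markers in the Krt20 class ran from 4.48 to 7771 TPM, so a plate set of that class can also hold goblet transcripts. Enteroendocrine markers were at or near 0 in all 3 classes. The part that this mixture has in any difference below was not tested. The median number of genes above 0 TPM was 2428.5 in the Krt20 class, 2647.5 in the tuft class and 2972.5 in the remaining cells, and the read depth of each well is unknown from TPM. Ribosomal RNA of Rn18s-rs5 took 67.4%, 78.8% and 76.7% of TPM in these classes, and mitochondrial genes took 9.13%, 2.65% and 4.49%. The targeted gene was higher under the knockout label in every plate set of the Krt20 class, and the labels overlapped in the other classes. Mean Ipmk in the Krt20 class was 11.8, 10.7 and 13.6 TPM in wild type sets 1, 3 and 6 and 47.5, 51.3, 30.1 and 15.7 TPM in sets 2, 4, 5 and 7, and 66.7% of wild type against 67.6% of labelled knockout cells were above 0. In the tuft class the means were 2.19, 1.61 and 1.7 TPM against 4.82, 12.7, 1.1 and 1.3 TPM, with 20.3% against 16.3% of cells above 0. In the remaining cells the shares were 28.7% and 26.9%, and the plate sets of the labels overlapped. A value for the whole gene also counts exons that stay in place, so these cells are called labelled conditional knockout throughout.

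**Figure D1:**
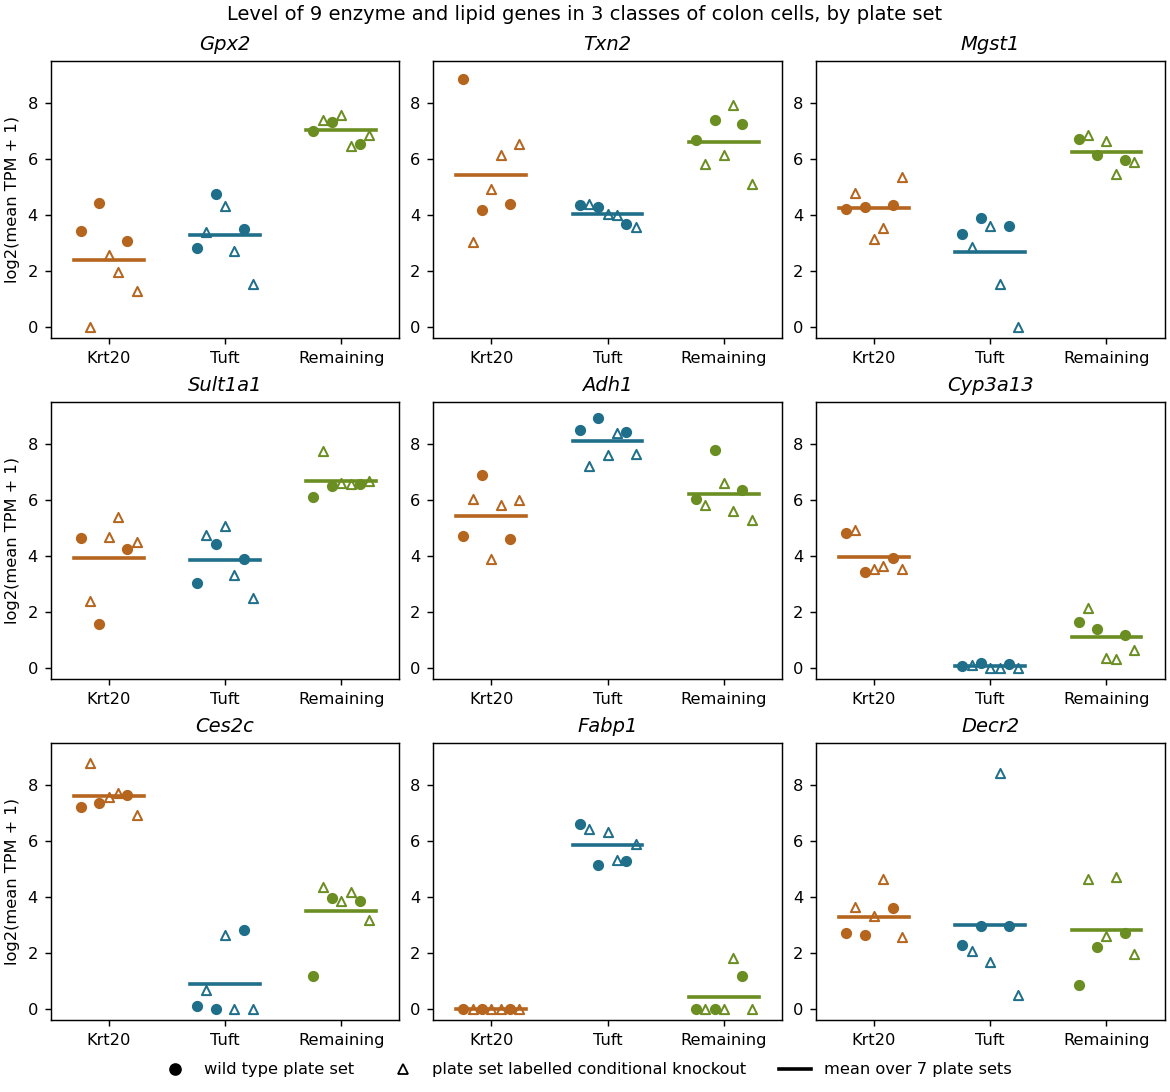
Mean level of each of the 9 genes in the 3 cell classes, as log2(mean TPM + 1). Each point is 1 plate set (filled, wild type; open, labelled conditional knockout), and the bar is the mean over the 7 plate sets. Gpx2, Mgst1 and Sult1a1 sit highest in the remaining cells, Adh1 and Fabp1 in the tuft class, and Cyp3a13 and Ces2c in the Krt20 class.

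The 9 genes fell into 4 patterns. Cyp3a13 and Ces2c were highest in the Krt20 class, Adh1 and Fabp1 were highest in the tuft class, and Gpx2, Mgst1 and Sult1a1 were highest in the remaining cells. Txn2 and Decr2 had no class that was highest in every plate set, and levels set in part by single cells. Txn2 was still higher in the remaining cells than in the tuft class in every plate set. A difference between classes was called when log2(mean TPM + 1) differed by at least 2-fold on average, kept its sign in all 7 plate sets, and the gene reached a mean of 10 TPM in 1 class. For the Krt20 class against the tuft class all 9 genes reached 10 TPM, and 2 were called higher and 2 lower, where 21.4% and 16.7% of the 2768 genes measured at that level were called higher and lower. For the remaining cells against the tuft class 8 reached it, with 5 higher and 2 lower, where 15.3% and 14.5% of all genes were called. For the Krt20 class against the remaining cells 8 reached it, with 2 higher and 3 lower, where 16.2% and 11.5% of all genes were called. These contrasts chose the genes, so nothing is read from the counts. The tuft class enters the first 2 contrasts and the remaining cells the last 2, so they are not independent of each other. Without Rn18s-rs5 and mitochondrial genes in the total, more genes reached 10 TPM. They were 7604 in place of 2768 for the Krt20 class against the tuft class. For the Krt20 class against the remaining cells they were 7589 in place of 2728. The median difference over the genes that reached it was −0.58 in each of these 2 contrasts, in place of 0.02. Higher calls then made up 38% and 31.9% of all calls in these 2 contrasts, in place of 56.1% and 58.6%. The parts of the added genes and of the changed scale in these values were not separated. The direction and call of each called gene among the 9 stayed as they were under that scaling.

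Letters upstream of 4 of these genes are shown first, because these 4 stand for the 3 class patterns with a clear order: Fabp1 for the tuft class, Ces2c and Cyp3a13, which moved together, for the Krt20 class, and Gpx2 for the remaining cells. Each run is the 250 bases before the RefSeq start of the gene on GRCm38.p6, written 5′ to 3′ along the gene's own strand. The windows are chr6:71199629-71199878 on the plus strand for Fabp1, chr8:104846818-104847067 on the plus strand for Ces2c, chr5:137921620-137921869 on the minus strand for Cyp3a13 and chr12:76795555-76795804 on the minus strand for Gpx2. Capitals mark matches to the motifs searched on both strands.
Fabp1: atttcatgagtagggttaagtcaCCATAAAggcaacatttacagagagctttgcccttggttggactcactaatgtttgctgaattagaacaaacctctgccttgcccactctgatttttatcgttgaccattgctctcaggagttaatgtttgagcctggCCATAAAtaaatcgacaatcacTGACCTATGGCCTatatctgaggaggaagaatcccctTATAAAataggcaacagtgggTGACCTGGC
Ces2c: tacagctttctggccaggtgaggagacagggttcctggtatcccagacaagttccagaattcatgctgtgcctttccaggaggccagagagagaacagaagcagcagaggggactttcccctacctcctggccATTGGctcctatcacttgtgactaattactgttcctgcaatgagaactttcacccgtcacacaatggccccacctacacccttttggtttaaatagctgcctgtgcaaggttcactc
Cyp3a13: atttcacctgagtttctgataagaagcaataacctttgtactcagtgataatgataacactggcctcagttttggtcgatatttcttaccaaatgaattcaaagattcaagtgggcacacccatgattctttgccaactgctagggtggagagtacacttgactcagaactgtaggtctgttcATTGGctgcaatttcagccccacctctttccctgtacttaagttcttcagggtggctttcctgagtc
Gpx2: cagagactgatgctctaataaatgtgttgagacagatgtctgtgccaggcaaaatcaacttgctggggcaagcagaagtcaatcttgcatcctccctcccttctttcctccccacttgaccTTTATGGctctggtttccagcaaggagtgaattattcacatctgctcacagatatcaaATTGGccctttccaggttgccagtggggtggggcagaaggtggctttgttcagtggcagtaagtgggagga
The motifs were the TATA box TATAAA, the CCAAT box CCAAT, the antioxidant response element core TGACNNNGC, a pair of nuclear receptor half-sites with 1 base between them, the octamer bound by POU factors ATGCAAAT, and the CDX-type site TTTATGG. Fabp1 had the TATA box 30 bases before its RefSeq start, the paired half-sites at −67 and CDX-type matches at −227 and −89, and its antioxidant core match at −9 is a stretch next to that start. The gene position given below for Fabp1 begins earlier, at 71199827, so the TATA box and the antioxidant core lie inside it. No matches in these 4 windows overlap. Gpx2 had a CDX-type match at −129 and a CCAAT box at −71, Ces2c a CCAAT box at −117 and Cyp3a13 a CCAAT box at −67. Of all 32851 RefSeq promoter windows, which run 250 bases before to 50 after a start, 13.6% hold TATAAA, 37.4% CCAAT, 12.4% the antioxidant core, 0.381% the paired half-sites, 1.74% the octamer and 2.75% the CDX-type site. All 9 genes matched the promoter table, with 10 entries because Mgst1 has 2. Txn2 and Sult1a1 also had a CCAAT box and 1 of the Mgst1 entries an antioxidant core, while none of these letters was found in the windows of Adh1 and Decr2. The Adh1 window, chr3:138277335-138277634, lies inside the gene position given below, which begins at 138260991. The Decr2 window, chr17:26090115-26090414 on the minus strand, lies mostly inside the gene position given below, which ends at 26090337. The absence therefore holds for these windows and not for all starts of these 2 genes. The octamer was in 0 of the 10 windows. A match is a description of letters and not a bound site.

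Among the enzymes against peroxides, Gpx2 is the gastrointestinal glutathione peroxidase, which reduces hydroperoxides with glutathione. It lies on the minus strand at chr12:76792333-76795554 (GRCm38, GENCODE M21), wholly inside Fntb on the opposite strand. Its mean level in the remaining cells was 126.4, 169.01, 158.6, 189.04, 86.9, 91.3 and 114.8 TPM in plate sets 1 to 7. In the tuft class it was 6.10, 9.56, 25.8, 18.9, 5.56, 10.3 and 1.90 TPM, and in the Krt20 class 9.65, 0, 20.5, 4.95, 2.89, 7.28 and 1.42 TPM. The lowest plate set of the remaining cells was thus above the highest of both other classes. The means were 133.7 ± 39.4 TPM in the remaining cells, 11.2 ± 8.38 TPM in the tuft class and 6.67 ± 6.96 TPM in the Krt20 class (SD, n = 7 plate sets). The remaining cells were higher than the tuft class by 3.73 ± 0.90 on the log2 scale, and the Krt20 class was lower than the remaining cells by a difference of −4.63 ± 1.54 (SD, n = 7 plate sets). The difference between the Krt20 and tuft classes was not called, at −0.91 ± 1.3, but was called lower without plate set 1, at −1.16. Detection followed the same order: 67.4% of remaining cells were above 0 TPM (95% exact Clopper-Pearson interval 61% to 73.3%), 13.8% of tuft cells (10.8% to 17.2%) and 13.4% of Krt20 cells (8.16% to 20.4%). All such intervals cover counting error only. Fntb, the gene on the other strand, was above 0 in 14.0%, 9.58% and 8.96% of the cells of the same classes, and strand handling is not stated. A processed copy, Gpx2-ps1, was above 0 in 5 remaining cells, 1 tuft cell and 0 Krt20 cells, with means of 26.1, 0.46 and 0 TPM, and reads could be split between it and Gpx2.

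Txn2 is the mitochondrial thioredoxin, which keeps thiols of that organelle reduced. It lies on the minus strand at chr15:77915047-77929006. Its mean level was 101.8, 55.1, 165.6, 70, 243.6, 153.1 and 33.2 TPM in the remaining cells of plate sets 1 to 7, and 19.3, 20.1, 18.7, 15.3, 14.9, 11.9 and 10.8 TPM in the tuft class. The 2 classes did not overlap, with means of 117.5 ± 74.2 and 15.9 ± 3.66 TPM (SD, n = 7 plate sets) and a difference of 2.57 ± 0.99 on the log2 scale. Krt20 class values were 458.3, 7.24, 17.1, 29.1, 70.1, 20.2 and 92.2 TPM, so the plate sets of that class span those of both others. Single cells set much of this spread. One Krt20 cell of plate set 1 stood at 5833 TPM and one remaining cell of plate set 5 at 5865 TPM, and without the highest cell of each plate set the Krt20 value of set 1 was 100.0 TPM and the remaining-cell value of set 5 was 42.8 TPM. Without those highest cells the remaining cells still ran from 27.9 to 107.4 TPM and the tuft class from 8.5 to 17.6 TPM. The call between these classes held in 23 of 23 other settings. The share of cells above 0 differed less than the means: 72.5% of remaining cells, 53% of Krt20 cells and 44.2% of tuft cells.

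Of the conjugating enzymes, Mgst1 is a microsomal glutathione transferase of membranes, and lies on the plus strand at chr6:138140316-138156755. Its mean level in the remaining cells was 103.9, 113.8, 70.2, 99.8, 43.4, 60.7 and 58.9 TPM in plate sets 1 to 7. The tuft class stood at 8.98, 6.16, 13.7, 11.1, 1.88, 11.1 and 0 TPM, and the Krt20 class at 17.6, 26.7, 18.4, 7.75, 10.5, 19.4 and 39.6 TPM. The tuft value of set 7 rests on 9 cells. The remaining cells were above both in every plate set, by 3.56 ± 1.24 over the tuft class, and the Krt20 class stood against them at −2.01 ± 0.90 on the log2 scale. With wells labelled tuft only, both calls were lost, the second at −0.66, and it was also lost with the mean of logs, at −1.91. The Krt20 class exceeded the tuft class in 6 of 7 plate sets, by 1.55 ± 1.88, which was not called. It was called with Krt20 at 50 TPM or more, at 1.85, and without plate set 4, at 1.89. Single cells weighed on these values: the Krt20 mean of set 2 was 0.59 TPM without 1 cell at 419.1 TPM. Mgst1 was above 0 in 49.2% of remaining cells, 18.7% of Krt20 cells and 6.46% of tuft cells.

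Sult1a1, a cytosolic sulfotransferase that conjugates phenols, lies on the minus strand at chr7:126672865-126676432 and overlaps the neighbouring Sgf29 by 61 bases. Its mean level in the remaining cells was 68.6, 213.1, 88.8, 95.7, 93.4, 94.5 and 101.9 TPM in plate sets 1 to 7. It was 7.20, 26.1, 20.3, 32.9, 8.98, 13.7 and 4.59 TPM in the tuft class, and 24.1, 4.29, 1.94, 24.9, 41.3, 18.2 and 21.4 TPM in the Krt20 class. The remaining cells again lay above every value of both other classes, and these 2 overlapped, with a difference of 0.07 ± 2.04 between them. The remaining cells were 2.83 ± 0.86 above the tuft class, and the Krt20 class stood at −2.76 ± 1.68 against the remaining cells, on the log2 scale. It was above 0 in 65.3% of remaining cells, 26.1% of Krt20 cells and 16.2% of tuft cells.

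**Figure D2:**
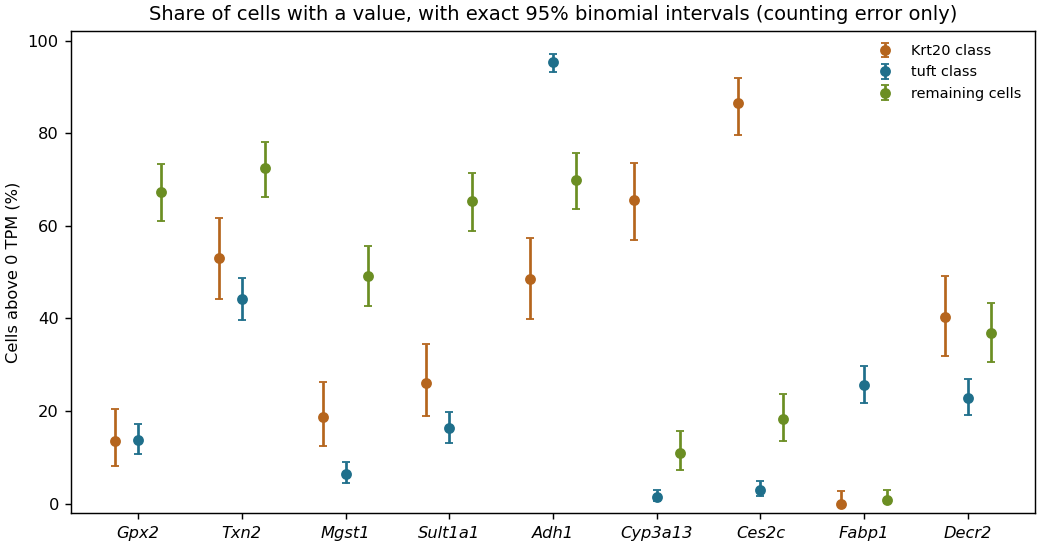
Share of cells above 0 TPM for each gene and class, in percent, with 95% exact binomial intervals over cells. Adh1 reached 95.4% of tuft cells, Ces2c 86.6% of Krt20 cells and Gpx2 67.4% of the remaining cells, and Fabp1 was at 0% in the Krt20 class.

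The oxidising and hydrolysing enzymes were divided between the Krt20 and tuft classes. Ces2c is a carboxylesterase that splits ester and amide bonds of drugs and lipids, and lies on the plus strand at chr8:104847068-104854483. In the Krt20 class it averaged 146.5, 446.2, 162.6, 191.6, 209.9, 201.8 and 120.7 TPM in plate sets 1 to 7. The tuft class stood at 0.08, 0.58, 0, 5.21, 0, 6.03 and 0 TPM, and the remaining cells at 1.28, 19.8, 14.5, 13.6, 17, 13.4 and 7.96 TPM. Every Krt20 value was above every value of the other classes, with means of 211.3 ± 108.3 TPM, 1.70 ± 2.70 TPM and 12.5 ± 6.13 TPM in the Krt20 class, tuft class and remaining cells (SD, n = 7 plate sets). The differences were 6.72 ± 1.31 to the tuft class and 4.10 ± 0.90 to the remaining cells on the log2(TPM + 1) scale, which understates the change where a class is near 0. The remaining cells were also above the tuft class, by 2.62 ± 1.44, a call lost under 5 of 23 other settings. Ces2c was above 0 in 86.6% of Krt20 cells (79.6% to 91.8%), 18.2% of remaining cells and 2.92% of tuft cells (1.6% to 4.85%).

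Cyp3a13, a cytochrome P450 of the family that oxidises many drugs and steroids, followed Ces2c at a lower level. It lies on the minus strand at chr5:137892932-137921619. In the Krt20 class it averaged 27.4, 29.7, 9.78, 10.6, 11.6, 14.2 and 10.7 TPM in plate sets 1 to 7, against at most 0.13 TPM in any tuft plate set. In the remaining cells it was 2.12, 3.46, 1.62, 0.28, 0.23, 1.27 and 0.54 TPM. Plate sets 1 and 2 had the highest means within the Krt20 class, but set 1 fell to 10.7 TPM without 1 cell at 278.3 TPM, and set 2 to 19.5 TPM without its highest cell. The classes did not overlap. The means were 16.3 ± 8.52 TPM in the Krt20 class, 0.05 ± 0.05 TPM in the tuft class and 1.36 ± 1.17 TPM in the remaining cells (SD, n = 7 plate sets). The Krt20 class was higher by 3.91 ± 0.62 than the tuft class and by 2.89 ± 0.44 than the remaining cells. Between the remaining cells and the tuft class the gene did not reach 10 TPM in either and was not called, at 1.02 ± 0.65. It was above 0 in 65.7% of Krt20 cells (57% to 73.7%), 11.0% of remaining cells and 1.46% of tuft cells (0.59% to 2.98%).

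Adh1, the class I alcohol dehydrogenase that oxidises ethanol and retinol, had the opposite order. It lies on the plus strand at chr3:138260991-138290698. Its mean level in the tuft class was 358.1, 149.5, 492.5, 192.4, 339.5, 343.6 and 200.01 TPM in plate sets 1 to 7. It was 64.9, 55.8, 217.97, 95.8, 47.6, 80.6 and 38.1 TPM in the remaining cells and 25.4, 64.1, 117.4, 13.9, 55.8, 23.6 and 62.3 TPM in the Krt20 class. The tuft class was the highest of the 3 within every plate set, although set 3 of the remaining cells exceeded 3 of the tuft values. That set was at 82.1 TPM without 1 cell at 4972 TPM. The means were 296.5 ± 121.1 TPM, 85.8 ± 61.5 TPM and 51.8 ± 35.4 TPM (SD, n = 7 plate sets). Against the tuft class, the Krt20 class stood at −2.68 ± 1.09 and the remaining cells at −1.90 ± 0.70 on the log2 scale. The difference between the Krt20 class and the remaining cells was not called, at −0.79 ± 1.23, but was with the mean of logs, at −1.21. Adh1 was above 0 in 95.4% of tuft cells (93.1% to 97.1%), 69.9% of remaining cells and 48.5% of Krt20 cells (39.8% to 57.3%), which made it the most widely detected of the 9 genes in the tuft class. The antisense gene Gm16559, which lies across 9291 bases of Adh1, was above 0 in 21.2% of tuft cells, 5.51% of remaining cells and 2.24% of Krt20 cells, with means of at most 2.80 TPM. Reads from the 2 strands cannot be told apart here.

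Fabp1, the liver-type fatty acid binding protein that carries fatty acids and bile acids in the cytosol, was a tuft class gene in these cells. It lies on the plus strand at chr6:71199827-71205023. The tuft class had means of 96.4, 85.9, 34.5, 79, 38.8, 38.4 and 59.1 TPM in plate sets 1 to 7, or 61.7 ± 25.5 TPM (SD, n = 7 plate sets). It was listed at 0 in all Krt20 cells, for which the limit of 3 counts of the total is 2.24% of cells with a value. In the remaining cells it was 0 in 5 plate sets and 2.51 and 1.25 TPM in sets 5 and 6, from 2 cells. No fold is given against a class listed at 0. The gene was not a feature of every tuft cell: 25.6% of its cells (21.8% to 29.8%) were above 0. Within those the median level was 104.9 TPM and the highest 2534 TPM, so a minority of cells carried the class mean. Fabp2, the intestinal-type relative with a similar carrier role, had the reverse order, with means of 119.4 TPM in the Krt20 class, 1.76 TPM in the tuft class and 20.7 TPM in the remaining cells.

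Decr2, a peroxisomal dienoyl-CoA reductase that acts on unsaturated fatty acids, lies on the minus strand at chr17:26081208-26090337. Its mean level was 5.52, 11.5, 5.30, 9.05, 23.9, 11.1 and 4.91 TPM in the Krt20 class, and 0.82, 23.8, 3.61, 5.04, 25.4, 5.61 and 2.94 TPM in the remaining cells of plate sets 1 to 7. In the tuft class it was 3.93, 3.16, 6.74, 2.17, 344.999, 6.88 and 0.42 TPM. The high value of tuft set 5 came from 1 cell at 18565 TPM and was 1.22 TPM without it. No contrast between classes was called, at 0.32 ± 1.99 for the Krt20 class and −0.17 ± 2.08 for the remaining cells against the tuft class. The gene was above 0 in 40.3% of Krt20 cells, 36.9% of remaining cells and 22.9% of tuft cells.

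**Figure D3:**
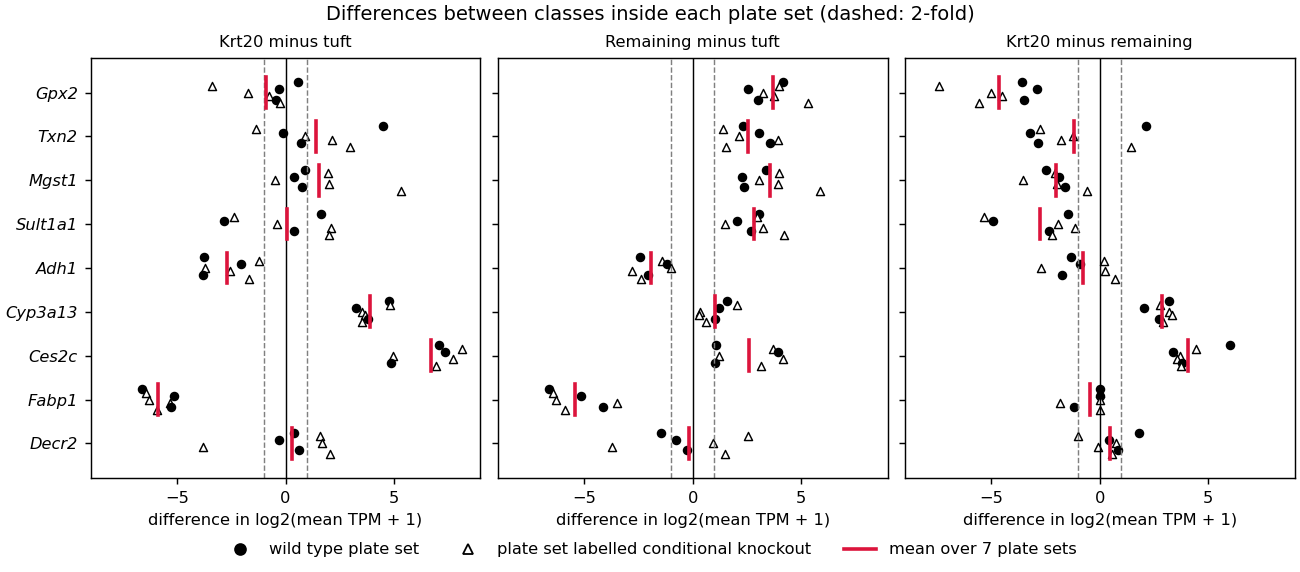
Difference between classes in log2(mean TPM + 1) for each gene within each plate set (points; filled, wild type; open, labelled conditional knockout), with the mean over 7 plate sets as a red bar and 2-fold as dashed lines, 1 panel per contrast. Points of Ces2c and Cyp3a13 lie above 0 and those of Adh1 below 0 in all 7 plate sets for the Krt20 class against the tuft class, and the points of Decr2 lie on both sides.

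The class differences were also averaged within each genotype label, where the call rule already fixes the sign of the called genes. For the Krt20 against the tuft class, Ces2c differed by 6.43 on average in wild type plate sets and by 6.94 in labelled conditional knockout sets, Cyp3a13 by 3.93 and 3.89, and Adh1 by −3.21 and −2.29. For the remaining cells against the tuft class, Gpx2 differed by 3.25 and 4.08, Mgst1 by 2.67 and 4.23 and Sult1a1 by 2.62 and 2.99. Whether these averages differ between the labels was not tested.

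Detection rose with the number of genes found in a cell, so the order of the classes was also read within ranges of that number (1000 to under 2000, 2000 to under 3000, and 3000 or more genes). Gpx2 was above 0 in 31%, 72.2% and 92.2% of remaining cells in these ranges, in 6.7%, 7.8% and 24.6% of tuft cells and in 5.3%, 14.3% and 22.4% of Krt20 cells. Ces2c was above 0 in 80.7%, 78.6% and 98% of Krt20 cells and in 0.7%, 1.2% and 6.1% of tuft cells. In each range Gpx2 had its highest share in the remaining cells, while its shares in the tuft and Krt20 classes had no fixed order. For Ces2c the Krt20 class was above the tuft class in each range. Adh1 was above 0 in 85.8%, 99.4% and 98.9% of tuft cells, and Fabp1 in 13.4%, 27.5% and 33% of tuft cells. Fabp1 was therefore at 0 in most tuft cells even in the range with the most genes.

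The 2 cell rules have thresholds, and cells near them were read apart. Among the 27 cells with Krt20 above 0 and under 20 TPM, Ces2c was above 0 in 63% at a mean of 70.4 TPM and Cyp3a13 in 33.3% at 6.78 TPM. Among the 16 cells with Krt20 from 20 to under 40 TPM, the values were 81.2% and 138.3 TPM for Ces2c and 62.5% and 11.8 TPM for Cyp3a13. Sult1a1 went the other way, from 51.9% of cells just below the threshold to 25% just above it, and Gpx2 from 29.6% to 6.25%. With so few cells the exact 95% intervals below and above the threshold overlapped for each of these genes. For Sult1a1 they were 31.9% to 71.3% and 7.27% to 52.4%, and for Gpx2 13.8% to 50.2% and 0.16% to 30.2%. At the tuft threshold, 20 cells had Trpm5 from 25 to under 50 TPM with Dclk1 at 50 TPM or more, and Gpx2 was above 0 in 60% of them, Adh1 in 95% and Fabp1 in 0%. In the 42 cells just inside the rule, with Trpm5 from 50 to under 100 TPM, these shares were 40.5%, 97.6% and 7.14%. Gpx2 at 64.1 TPM in those 42 cells lay above the tuft class mean of 11.2 TPM, so cells near the threshold differ from the rest of their class.

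The remaining cells were further divided by genes that no rule used, a division chosen after the data were seen. In 70 of these cells the proliferation genes Mki67 or Top2a were above 0 TPM. Gpx2 was above 0 in 94.3% of these 70 cells at a mean of 247.9 TPM, against 56% at 72.6 TPM in the other cells. By plate set, Gpx2 ran from 162.04 to 473.2 TPM in the cells with a proliferation gene (6 plate sets) and from 31.3 to 100.3 TPM in the others (7 plate sets), with no overlap. Mgst1 was above 0 in 75.7% against 38% and Sult1a1 in 88.6% against 55.4%, while their plate set ranges overlapped. Ces2c had the reverse order, at 12.9% against 20.5%, and Adh1 the same share in both, at 70% and 69.9%. The median number of genes was 4092 in the cells with a proliferation gene and 2288.5 in the others, and the part of that difference in the shares was not tested.

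Within the remaining cells the sorting label also separated Gpx2 and Mgst1. In the 4 plate sets with at least 5 such cells of both labels (2, 3, 4 and 5), Gpx2 averaged 94.4, 99.6, 149.6 and 47.2 TPM in wells labelled tuft and 280.9, 524.4, 333.7 and 239.2 TPM in wells labelled epithelial. Mgst1 averaged 101.2, 52.6, 55.1 and 30.8 TPM against 132.8, 179.7, 263.6 and 91.7 TPM. Both genes were higher in the wells labelled epithelial in 4 of 4 plate sets, while Sult1a1 was in 3 of 4. Some of these values rest on 5 or 6 cells. Over all classes, 1 of the 9 genes was called between wells labelled epithelial and tuft on the first plate of each set. Cyp3a13 averaged 13.8 TPM in epithelial wells and 2.07 TPM in tuft wells, higher in 7 of 7 plate sets by 1.78 ± 1.1 on the log2 scale. Mgst1 and Sult1a1 were higher in epithelial wells in 6 of 7 plate sets and were not called. Their sign was reversed in set 6, at −5.48 and −3.92. In that set 12 of the 20 epithelial wells were in the tuft class, and the part of this in the missed calls was not tested. None of the 9 was called lower, and 2.37% and 0.677% of 2954 genes were called higher and lower.

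Some pairs of genes of 1 pattern were often detected in the same cells. Adh1 with Fabp1 and pairs from different patterns are not given here, so shared detection is not read as a trait of a pattern. Among the remaining cells, 94.8% of the cells with Mgst1 also had Sult1a1, against 36.7% of those without Mgst1, and Spearman's rho of the levels was 0.68 over these cells. For Gpx2 and Sult1a1 the shares were 82.4% and 29.9%, with rho 0.55. In the tuft class 42.4% of the 66 cells with Gpx2 had Mgst1, against 0.72% of the others (rho 0.62 over 480 cells), so the few tuft class cells with one of these enzymes often had the other. In the Krt20 class 95.5% of cells with Cyp3a13 had Ces2c, against 69.6% of the others (rho 0.53). Cells with either gene had more genes detected, for example a median of 4135.5 against 1864 for Mgst1 in the remaining cells and 3770.5 against 2517.5 for Gpx2 in the tuft class, and the part of depth in these shares was not tested.

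Across the 21 means of 3 classes in 7 plate sets, Cyp3a13 and Ces2c had a Pearson correlation of 0.90 in log2(mean TPM + 1), Gpx2 and Sult1a1 0.77, Adh1 and Fabp1 0.76, and Ces2c and Fabp1 −0.76. These points share plate sets and the class rule. Among 2755 other genes, the most alike to Cyp3a13 were Abcb1a, the drug efflux pump P-glycoprotein (0.98), and Nudt4 (0.96), and to Ces2c Cldn23 (0.97) and Ces2e (0.96). To Fabp1 the nearest named gene was Tm4sf4 (0.97), at 16.5 TPM in the tuft class and 0 TPM in the Krt20 class. For Gpx2 these were Rpsa (0.94) and Apex1 (0.92), for Mgst1 M6pr (0.92) and Stard4 (0.89), and for Sult1a1 the goblet marker Agr2 (0.90) and Shmt1 (0.90). Within the remaining cells Sult1a1 was above 0 in 57.1% of the 49 cells with the goblet mucin Muc2 above 0 (median 8.72 TPM), against 67.4% of those with Muc2 at 0 (median 56.4 TPM). For Adh1 they were Inpp5b (0.88) and Bpgm (0.88), for Txn2 Akr7a5 (0.82) and Clns1a (0.79), and for Decr2 Lrrc41 (0.74) and Mrps23 (0.70).

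**Figure D4:**
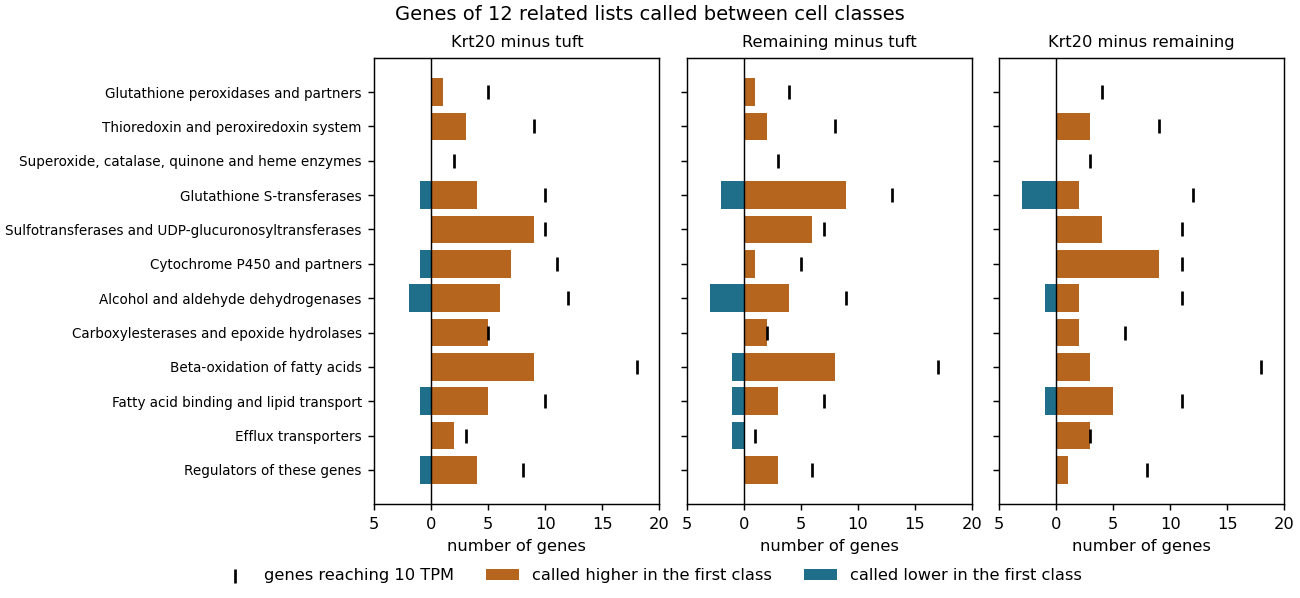
Number of genes of 12 lists called higher (right of 0) or lower (left of 0) in each of the 3 class contrasts, 1 panel each, with the number reaching 10 TPM as a tick. For the Krt20 class against the tuft class, conjugation by sulfate and glucuronate (9 higher of 10) and carboxylesterases (5 of 5) had the fullest counts, and glutathione peroxidases had 1 of 5. In the sulfate and glucuronate list only Ugdh, and in the carboxylesterase list no gene, reached 10 TPM in the tuft class. Genes that reached it only in the Krt20 class could not be called lower.

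The wider families were counted in 12 lists of other genes. Of those that reached 10 TPM in the Krt20 or tuft class, 55 were called higher and 6 lower in the Krt20 class, or 53.4% and 5.83%, where the background over all genes was 21.4% and 16.7%. Each of the 12 lists had a median above the 0.02 of all genes. The lists were chosen with earlier results of these data known. A gene that reached 10 TPM only in the Krt20 class could not be called lower. Nothing is therefore read from the distance of these shares and medians to those of all genes. Without Rn18s-rs5 and mitochondrial genes in the total, 53 and 6 of the same genes were called, and no called list gene turned its direction in any of the 3 class contrasts. Sulfotransferases and glucuronosyltransferases had 9 of 10 higher (median 2.95), among them the sulfotransferases Sult1b1 (35.9 against 0.70 TPM) and Sult2b1 (31.7 against 0.64 TPM) and the glucuronosyltransferase Ugt1a7c (30.7 against 2.37 TPM). Sult1a1 itself did not share this order. Cytochromes P450 and partners had 7 of 11 higher and 1 lower (median 3.31), led by Cyp2c55 (386.7 against 4.2 TPM), Cyp2d34 (46.6 against 0.77 TPM) and Cyp4b1 (17.2 TPM against a listed 0). The lower one was Cyb5a, cytochrome b5, at 19.5 against 43 TPM. Carboxylesterases and other hydrolases had 5 of 5 higher (median 2.63), with Ces2a at 94.2 against 0.37 TPM, Ces2e at 48 against 0.50 TPM and Pon2 at 13 against 1.26 TPM. All 5 reached 10 TPM in the Krt20 class only, so none could be called lower. The other genes of that list did not reach it in either class and were not counted. Ces2a and Ces2e are close relatives of Ces2c, and the counting could split reads between them. Efflux transporters had 2 of 3 higher, Abcg2 (35.0 against 1.12 TPM) and Abcb1a (62.5 against 3.99 TPM).

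Alcohol and aldehyde enzymes were divided, with 6 of 12 higher and 2 lower (median 1.15). Aldh1a1, which makes retinoic acid, stood at 23.5 against 0.45 TPM, Akr1c19 at 37.4 against 3.32 TPM and Akr1b8 at 18.4 against 0.47 TPM, while Aldh3a2 (13.3 against 37.6 TPM) and Aldh9a1 (5.29 against 18.7 TPM) had the direction of Adh1. Glutathione transferases had 4 of 10 higher, led by Gstp2 (58.4 against 6.31 TPM), Gstk1 (21.2 against 2.15 TPM) and Gsto1 (98.1 against 25 TPM), and Gstt1 lower (4.58 against 16.3 TPM). Thioredoxins and peroxiredoxins had 3 of 9 higher, among them Prdx6 (803 against 25.4 TPM), Prdx5 (115.8 against 32.9 TPM) and Glrx (33.8 against 14.0 TPM). Glutathione peroxidases and partners had 1 of 5, the glutathione synthetase Gss (28.7 against 6.50 TPM). The list of superoxide, catalase, quinone and heme enzymes had 0 of 2.

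Fatty acid oxidation had 9 of 18 higher and none lower (median 1.48), among them Hadhb, a subunit of the mitochondrial trifunctional protein, at 27.8 against 8.78 TPM and the hydroxyacyl-CoA dehydrogenase Hadh at 37.6 against 9.46 TPM. Fatty acid binding and handling had 5 of 10 higher, among them Fabp2, Apob (17.6 against 0.25 TPM) and Dgat2 (11.7 against 0.47 TPM), and the fatty acid transporter Slc27a1 lower (1.34 against 12.7 TPM). Regulators had 4 of 8 higher, with the bile acid receptor Nr1h4 at 17.4 against 0.60 TPM, the vitamin D receptor Vdr at 22.7 against 5.11 TPM and the antioxidant regulator Nfe2l2 at 14.7 against 4.24 TPM, and the intestinal factor Cdx1 lower (16.1 against 41.2 TPM). The genes called lower were named after their values were seen.

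The remaining cells differed from the tuft class in 39 higher and 8 lower of 82 list genes that reached 10 TPM, or 47.6% and 9.76%, beside 15.3% and 14.5% of all genes. The limits given above for the list counts hold here and for the Krt20 class against the remaining cells. Glutathione transferases took 9 of 13 higher and 2 lower (median 1.82 against 0.12 for all genes), which is the family of Mgst1. Gstm1, Gsta4 and Gstm2 stood at 72, 23 and 21.8 TPM in the remaining cells, 16.8, 3.29 and 3.63 TPM in the tuft class and 12.2, 3.74 and 5.62 TPM in the Krt20 class. They were also the 3 glutathione transferases called lower in the Krt20 class than in the remaining cells, the order that Mgst1 had. Mgst3, another microsomal transferase, had the opposite order, with 28.1 TPM in the remaining cells against 107.6 TPM in the tuft class and 97 TPM in the Krt20 class. These genes were named after their values were seen. For the Krt20 class against the remaining cells, 34 list genes were higher and 5 lower, or 31.8% and 4.67% of those that reached 10 TPM, beside 16.2% and 11.5% of all genes. With the total taken without Rn18s-rs5 and mitochondrial genes, 29 of the same genes were higher and 7 lower in this contrast. For the remaining cells against the tuft class these counts were 42 and 7. Gpx1 and Gpx4, the broadly used glutathione peroxidases, were called in no class contrast on the deposited scale (without Rn18s-rs5 and mitochondrial genes, Gpx1 was higher in the remaining cells than in the tuft class), at 72.7 and 83.1 TPM in the Krt20 class, 46.5 and 88.6 TPM in the tuft class and 91.5 and 83.7 TPM in the remaining cells, in contrast to Gpx2.

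Under the 2 genotype labels, 2 of the 9 genes met the rule for a difference, which asked for at least 1.5-fold with no overlap between the 3 wild type and 4 labelled conditional knockout plate sets. Adh1 in the tuft class was 358.1, 492.5 and 343.6 TPM in wild type sets 1, 3 and 6 and 149.5, 192.4, 339.5 and 200.01 TPM in sets 2, 4, 5 and 7. The labelled knockout sets were all below the wild type sets, though set 5 lay close to set 6. The means were 398.1 ± 82.1 TPM (SD, n = 3 plate sets) and 220.3 ± 82.5 TPM (SD, n = 4 plate sets), and the difference was −0.90 on the log2 scale (SD 0.42), where the median of all genes was −0.21. Nearly every cell had a value under both labels, 95.9% and 94.6%, and the median cell stood at 211.4 against 122.3 TPM. In the tuft class 1.78% of 2301 genes were called higher and 2.96% lower, and 7 of the 9 genes reached 10 TPM there. The number of genes per cell moved with the label, with a median of 2745.5 in wild type and 2406.5 in labelled knockout tuft cells. Mean Adh1 was 96.8 TPM in tuft cells with under 2000 genes, 221.97 TPM with 2000 to under 3000 and 584.8 TPM with 3000 or more. With only cells of 2000 to 4000 genes, the difference was −0.62 and the plate sets overlapped, and with only wells labelled tuft it was −0.85 with overlap. The call was also lost with at least 2000 genes per cell, at −0.71, and with the mean of logs. In the remaining cells Adh1 differed by −0.89 (SD 0.73), from 121.2 ± 84.2 to 59.3 ± 25.4 TPM, with overlap and no call. Without its highest cell, in set 3, the difference was −0.43, and without set 3 it was −0.37.

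Gpx2 in the Krt20 class was 9.65, 20.5 and 7.28 TPM in the wild type sets and 0, 4.95, 2.89 and 1.42 TPM in the labelled conditional knockout sets. The difference was −2.18 (SD 0.97) on the log2 scale, from 12.5 ± 7.06 to 2.31 ± 2.12 TPM. It rests on few cells, 17.5% of 63 (9.05% to 29.1%) against 9.86% of 71 (4.06% to 19.3%), and these intervals overlap. Without plate set 3 the wild type mean fell under 10 TPM and the gene was not called, at −1.78. It was also not called with at least 2000 genes per cell, at −0.52, or with the mean of logs, at −0.64. In this class 4% of 2577 genes were called higher and 5.04% lower, and 8 of the 9 genes reached 10 TPM, so 1 lower of 8 is to be read against that background. In the remaining cells none of the 7 genes that reached 10 TPM was called, where 0.973% and 1.34% of 2467 genes were. There Gpx2 differed by 0.13 (SD 0.47), Mgst1 by −0.05 (SD 0.56) and Sult1a1 by 0.50 (SD 0.46).

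**Figure D5:**
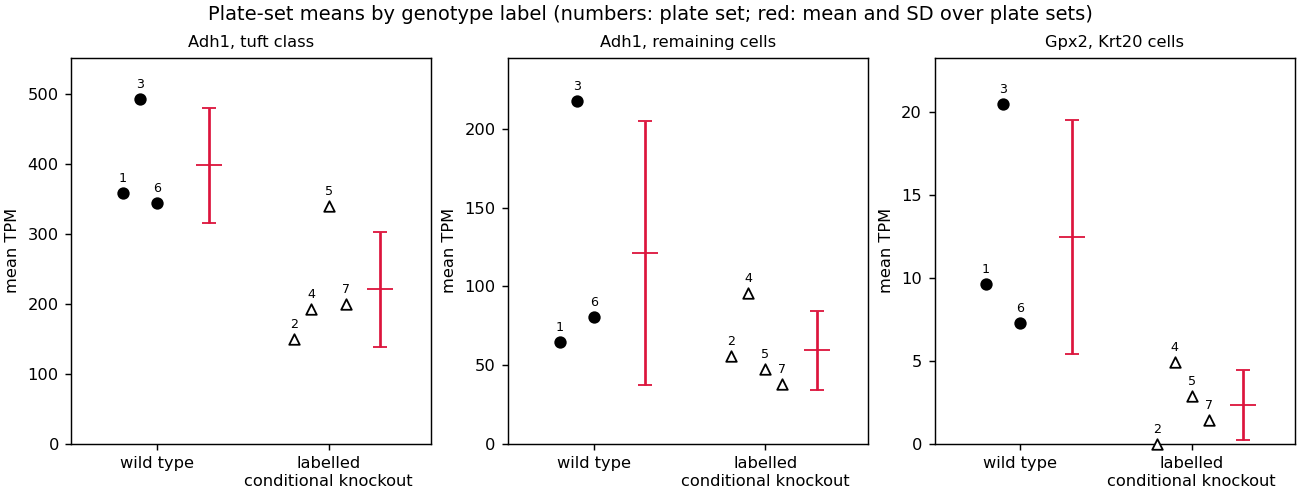
Mean TPM per plate set (numbered points) under the 2 genotype labels for Adh1 in the tuft class, Adh1 in the remaining cells and Gpx2 in the Krt20 class, with the mean and SD over plate sets in red. Tuft class Adh1 runs from 343.6 to 492.5 TPM in wild type sets and from 149.5 to 339.5 TPM in labelled knockout sets.

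The other genes were not called under any label contrast. In the Krt20 class Ces2c was 170.3 TPM in wild type and 242.1 TPM in labelled knockout sets on average, a difference of 0.35 (SD 0.62), and Cyp3a13 was 17.1 and 15.6 TPM, a difference of −0.14 (SD 0.69). Fabp1 in the tuft class was 56.4 ± 34.7 TPM in wild type and 65.7 ± 21.2 TPM in labelled knockout sets, a difference of 0.31 (SD 0.64). Mgst1 in the tuft class differed by −1.61 (SD 1.24), with overlap. Txn2 differed by −0.64, −0.11 and −0.86 in the Krt20, tuft and remaining cells (SD 2.06, 0.35 and 0.96), and Decr2 by 0.56, 0.42 and 1.55 (SD 0.75, 2.78 and 1.25). A difference that was not called is not shown to be absent with these few plate sets. Of the list genes, the Krt20 class had 2 higher and 3 lower (1.92% and 2.88% of those that reached 10 TPM, beside 4% and 5.04% of all genes), the tuft class 1 lower of 48 (2.08%, beside 2.96%) and the remaining cells 1 lower of 79 (1.27%, beside 1.34%). These shares were at or under those of all genes, and nothing is read from them. These were named after their values were seen: in the Krt20 class the sulfotransferase Sult1b1 was higher by 0.88 and the prostaglandin transporter Slco2a1 by 0.80, and the thioredoxin inhibitor Txnip, the P450 reductase Por and the acyl-CoA dehydrogenase Acadm stood at −0.82, −0.98 and −1.25. The enoyl-CoA hydratase Echs1 stood at −1.59 in the tuft class and the glutathione transferase Gstt1 at −0.74 in the remaining cells. Por, Acadm, Echs1 and Gstt1 were not called without Rn18s-rs5 and mitochondrial genes in the total. Under that scaling 7529 genes reached 10 TPM in the remaining cells, in place of 2467. The median over the genes that reached it was −0.03 in place of −0.17. Higher calls there made up 55% of all calls in place of 42.1%.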

How the data were processed

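The deposited values are TPM per gene and well, estimated by the authors. Per the submitters' processing notes, tools included RSEM 1.3.3 and Bowtie2 2.4.2 and the build was mm10, and strand handling is not stated. Each well sums to 1000000 TPM, so read depth is unknown, and a level also depends on the rest of the well. Of 1203 wells, 347 were left out: 19 without a value, 38 of a near-empty plate with at most 6 genes each, and 303 others with a value but under 1000 genes above 0 TPM (some wells fall under 2 of these). The classes held 134 (Krt20), 480 (tuft) and 236 (remaining) cells. With Python 3.11.15, pandas 2.3.3, numpy 2.4.6 and scipy 1.17.1, mean TPM was taken per class and plate set (at least 5 cells), then log2(mean + 1 TPM), and differences were averaged over plate sets. The call rules were tried on simulated cells drawn from 1 tuft class mean per gene, without differences between plate sets. That trial cannot tell how often the rules err through the spread between plate sets. The authors' TPM were used as deposited, with no test, since each genotype is 1 sample. All 9 genes are named. For each, the 2 genes most alike in level were named, and for each list the 3 largest called differences between the Krt20 and tuft classes (1 gene that this rule names is not reported here). The genes and lists were chosen with earlier results of these data known. Alternatives covered the pseudocount, mean of logs, gene minimum, Krt20 threshold, cells meeting both rules, scaling, sorting label, cells per plate set, the level filter and leaving out each plate set. Leaving out the highest cell of each gene, and keeping only remaining cells with Trpm5 at 0, were added after seeing the data.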

Additional observations from a re-analysis of the deposited data

Results flagged for a closer look

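Among the 4 labelled conditional knockout plate sets, 26 groups of gene and class were examined for a plate set far from the other 3. Some of these means rest on 1 cell or stand beside means of 0. A chance rate of about 1 in 20 groups therefore does not hold for them, and the number flagged is not read as an excess. Plate set 2 stood high for Sult1a1 in the remaining cells (213.1 TPM) and for Cyp3a13 in all 3 classes, at 29.7 TPM in the Krt20 class, 0.083 TPM in the tuft class and 3.46 TPM in the remaining cells. Plate set 4 stood low for Adh1 in the Krt20 class (13.9 TPM) and high for Ces2c in the tuft class (5.21 TPM). Single cells carried part of these values: without the highest cell, set 2 was at 189.6 TPM for Sult1a1, and at 19.5, 0.038 and 0.07 TPM for Cyp3a13 in these classes, and set 4 was at 0.85 TPM for Ces2c. Plate set 5 stood high for Fabp1 in the remaining cells (2.51 TPM, from 1 cell) and for Decr2 in the tuft class (344.999 TPM, and 1.22 TPM without 1 cell).

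The wells with a value on the other plates but under 1000 genes entered no comparison. A value above 0 was found for Adh1 in 21.1% of them, Sult1a1 in 7.59%, Gpx2 in 6.27%, Ces2c in 5.94% and Txn2 in 4.95%. The share was 2.64% for Cyp3a13, 1.98% for Decr2, 1.32% for Mgst1 and 0.330% for Fabp1, from 1 well. Exact intervals were 0.73% to 4.26% for Decr2, 0.36% to 3.35% for Mgst1 and 0.0084% to 1.83% for Fabp1, and these overlap. The limit of 0.990% holds for a count of 0, which no gene had, so the shares are not read against it.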

How the results depend on the processing

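No paired analysis was possible because the results come from no test. Class differences were taken within each plate set, and plate sets are nested in genotype. Over 23 settings, 1215 differences of the 9 genes were recomputed: 1131 moved by less than the spread between plate sets, 84 moved further and 0 called ones changed sign. The 4 calls between the Krt20 and tuft classes held in 22 of 22 settings. Some calls were gained there: Txn2 higher with 2000 to 4000 genes per cell (2.06), Mgst1 higher with Krt20 at 50 TPM or more (1.85) or without set 4 (1.89), and Gpx2 lower without set 1 (−1.16). Between the Krt20 class and the remaining cells, Adh1 was called lower with the mean of logs (−1.21), and Mgst1 was lost with it (−1.91). With wells labelled tuft only, 3 genes were higher in the remaining cells than in the tuft class, in place of 5, since Mgst1 and Ces2c were lost, and Mgst1 was also lost between the Krt20 class and the remaining cells (−0.66). By genotype label in the Krt20 class, 2 genes were lower with 2000 to 4000 genes per cell, 0 with at least 2000 genes, 0 with the mean of logs, and 0 to 1 when leaving out a plate set (0 without set 3). In the tuft class 0 were lower with 2000 to 4000 genes, at least 2000 genes, the mean of logs or wells labelled tuft only, and 1 to 2 when leaving out a plate set (Mgst1 joined without set 1 or 4), while 0 to 1 were higher (Fabp1, 0.77, without set 1). In the remaining cells 1 was higher with 2000 to 4000 genes (Sult1a1) and 0 to 1 when leaving out a plate set (Sult1a1 without set 5 or 6), and 1 was lower without each gene's highest cell (Txn2) and 0 to 1 when leaving out a plate set (Adh1 without set 4, Txn2 without set 5). The cause was not tested. Read depth is unknown, so a value of 0 may be a missed transcript, and plate set and genotype cannot be told apart. Across settings, 4.6% to 24.4% of all genes were called higher in the Krt20 than in the tuft class, and 1.74% to 15.7% lower by label in the tuft class.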
